A study of Mus musculus with 435 samples.

Results

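Nr5a1, its eGFP reporter and Nr0b1 are 3 of the 16459 rows of a single-cell RNA-seq table from developing mouse testis, and they are described here cell by cell. The 3 were chosen by name: Nr5a1 is the gene whose reporter was used to sort the cells, eGFP is that reporter's own transcript, and Nr0b1 encodes a nuclear receptor partner of NR5A1. Every cell came from an XY gonad of NR5A1-eGFP mice on a mixed background and was sorted as eGFP positive and free of the dead-cell dye Draq7, so no sample without the transgene and no eGFP-negative cell stands beside them. The stages, given as embryonic days, were E10.5, with 1 capture, and E11.5, E12.5 and E13.5 as well as E16.5, each with 2 independent captures. A capture is 1 load of a Fluidigm C1 microfluidic chip, on which single cells are lysed and their cDNA amplified. The labels do not give the number of embryos behind a capture, how the transgene was built, or how many founder lines carried it.

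NR5A1, also called SF-1, is an orphan nuclear receptor that gonads and adrenal glands need to form, and in the testis it acts in the supporting cells that become Sertoli cells and in the steroid-making Leydig cells. NR0B1, also called DAX1, is an atypical nuclear receptor without a classical DNA-binding domain that binds NR5A1 and represses its activity, and its own gene is a known target of NR5A1 and of Wnt signalling. An eGFP reporter under Nr5a1 control marks the cells in which that gene is, or recently was, switched on, because the fluorescent protein can outlast the transcript.

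Nr5a1 lies on the minus strand at chr2:38692656-38714542 and Nr0b1 on the plus strand at chrX:86191764-86195947 (GRCm38, GENCODE annotation). The antisense gene Nr5a1os, at chr2:38712676-38720638, overlaps the first 1867 bases of Nr5a1. Nr5a1os has no row in the table and the strand setting of the counting is not given, so reads of the 2 genes cannot be told apart in that stretch. Likewise, if the transgene carries any Nr5a1 sequence, its reads cannot be told apart from those of the endogenous gene. The nearest end of Nr6a1, which encodes another orphan nuclear receptor and lies on the same strand, is its 3′ end, 8827 bases from Nr5a1. The sequence just upstream of Nr0b1 is shown because NR5A1 is known to act on this gene; it is the stretch from 250 bases before the RefSeq start to the start of the annotated gene, chrX:86191525-86191763 on the plus strand (RefSeq, GRCm38.p6, 239 bases), 5′ to 3′:
Nr0b1 upstream: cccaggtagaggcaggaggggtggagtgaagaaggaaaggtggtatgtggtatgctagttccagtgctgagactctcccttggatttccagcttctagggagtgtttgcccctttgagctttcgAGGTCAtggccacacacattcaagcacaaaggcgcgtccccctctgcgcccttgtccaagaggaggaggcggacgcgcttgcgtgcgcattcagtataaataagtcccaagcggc
The capitals mark the letters AGGTCA, the core of the element that NR5A1 recognises, searched on both strands. They occur once here, with their first base 126 bases before the start. The same letters are found in 4432 of 32851 promoter windows of the RefSeq table (13.49%), and in 4 of the 12 windows that belong to the list of NR5A1 target genes used below, so a match describes the window and shows neither a site nor a cause.

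The values are RPKM, reads scaled to transcript length and to library depth, so levels can be compared between genes. Of 435 labelled cells 400 have values, and 396 remained after 3 cells under 3000 detected genes were removed and 2 near-identical profiles were averaged. They were 59 cells of E10.5, 93 of E11.5, 67 of E12.5, 112 of E13.5 and 65 of E16.5. The depth implied by the steps of low values had a median of 2.20 to 3.24M reads a cell over the 6 captures of E11.5, E12.5 and E16.5, labelled 10M reads, and of 7.83 to 8.10M reads in the 3 captures of E10.5 and E13.5, labelled 25M reads. A stage was sequenced at 1 depth only, so a difference between E10.5 or E13.5 and the other stages cannot be told apart from one of depth. A single read was worth 0.029 to 0.107 RPKM of Nr5a1, 0.172 to 0.633 RPKM of eGFP and 0.068 to 0.251 RPKM of Nr0b1, by the median cell of a capture, so the detection level of 1 RPKM used below lies above a single read in the median cell of every capture.

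Nr5a1 transcript was found in most sorted cells but spread over a wide range. It reached 1 RPKM in 309 of 396 cells (78.03%), 10 RPKM in 183 cells and 100 RPKM in 47 cells, was at 0 in 32 cells, and its highest value was 367 RPKM. By its mean it ranked 1625 of 16459 rows. The mean over the cells of a capture was 13.04 RPKM at E10.5. The E11.5 captures had means of 48.7 and 58.9 RPKM, the E12.5 captures 33.2 and 27.3 RPKM, the E13.5 captures 25.8 and 27.9 RPKM and the E16.5 captures 57.9 and 42.4 RPKM.

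In the order of stage means, E11.5 (53.8 ± 7.19 RPKM, SD, n = 2) stood beside E16.5 (50.2 ± 10.9 RPKM, SD, n = 2), then came E12.5 (30.3 ± 4.19 RPKM, SD, n = 2) beside E13.5 (26.8 ± 1.46 RPKM, SD, n = 2), and E10.5 with its single capture was lowest. The captures of E11.5 and E16.5 overlapped, as did those of E12.5 and E13.5, whereas every capture of the upper pair of stages lay above every capture of the lower pair. Within captures the medians were far below the means, at 1.75 RPKM at E10.5, 6.92 and 15.2 RPKM at E11.5, 6.04 and 11.8 RPKM at E12.5, 9.21 and 6.04 RPKM at E13.5, and 39.4 and 10.9 RPKM at E16.5. A minority of cells therefore carried most of the transcript, and the 2 captures of E16.5 differed more in their median cell than in their mean.

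The share of cells at 1 RPKM or more of Nr5a1 was 55.9% at E10.5 (Wilson 95% interval 43.3% to 67.8%, 59 cells). It was 73.1% and 78.05% in the E11.5 captures, 70% and 91.9% in those of E12.5, 87.5% and 73.2% in those of E13.5, and 93.5% and 94.1% in those of E16.5. Intervals here cover counting error only. E10.5 was lowest and the E16.5 captures highest, and the ranges of the 3 captures up to E11.5 (55.9% to 78.05%) and of the 6 later captures (70% to 94.1%) overlapped. The mean share was 69.02% ± 11.6 (SD, n = 3) in the former and 85.05% ± 10.7 (SD, n = 6) in the latter, a difference of 16.03 percentage points that did not pass a two-sided exact permutation test, with 84 splits of the captures (p = 0.107, 0.321 adjusted over the 3 members, smallest possible p 0.0119). The difference was 11.8 points within the 10M-read captures and 24.4 points within the 25M-read captures. It was 1.76 points when any value above 0 counted as detection, and 6.32 points when each cell was thinned to 1M reads.

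**Figure D1:**
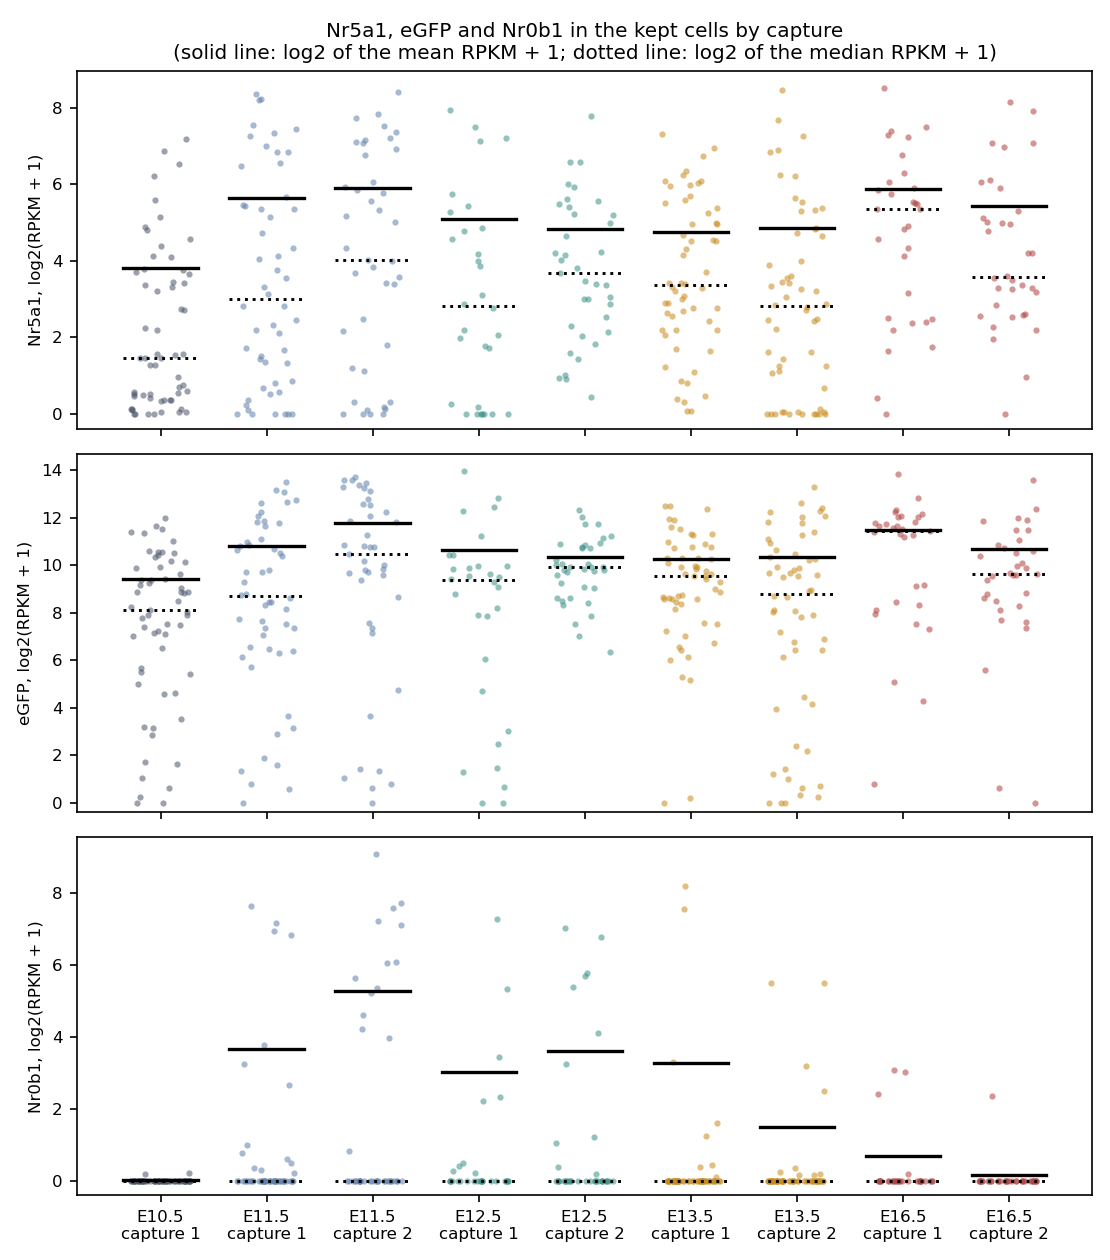
Nr5a1, eGFP and Nr0b1 in each kept cell, as log2(RPKM + 1), by capture and coloured by stage, with a solid line at the capture's mean RPKM and a dotted line at its median RPKM, both placed on that scale. Nr5a1 and eGFP spread widely in the captures, E12.5 capture 2 has no eGFP value below 80.01 RPKM, and most cells lie at 0 for Nr0b1, with 9 of the 14 cells at 100 RPKM or more at E11.5.

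The eGFP transcript was among the most abundant rows of the table, ranking 4 of 16459 by its mean. It reached 1 RPKM in 370 of 396 cells (93.4%), 10 RPKM in 348 cells and 100 RPKM in 313 cells, was at 0 in 11 cells, and its highest value was 16125 RPKM. The capture means were 683 RPKM at E10.5, 1802 and 3505 RPKM at E11.5, 1617 and 1307 RPKM at E12.5, 1223 and 1321 RPKM at E13.5, and 2832 and 1630 RPKM at E16.5. As for Nr5a1, E10.5 was lowest, and the E12.5 and E13.5 captures lay close together below those of E11.5.

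The share of cells with eGFP at 1 RPKM or more lay between 85.7% and 100% of a capture, with the lowest in E13.5 capture 2 and the highest in E12.5 capture 2, whose lowest cell still held 80.01 RPKM. Although all cells had been sorted as eGFP positive, 26 of 396 were under 1 RPKM of eGFP. The mean share was 93.4% ± 0.786 (SD, n = 3) in the early captures and 93.8% ± 5.18 (SD, n = 6) in the later ones, and the difference of 0.461 points did not pass the exact permutation test (p = 0.929, adjusted 0.929).

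Reporter and endogenous transcript varied together from cell to cell in every capture. The within-capture Spearman correlation of Nr5a1 with eGFP was 0.767 for E10.5. The E11.5 captures had 0.769 and 0.925, those of E12.5 0.877 and 0.651, those of E13.5 0.810 and 0.811, and those of E16.5 0.745 and 0.622. These are descriptions over 30 to 59 cells that share a chip and a library run, and no test was made of them. Among all 8327 genes ranked against Nr5a1 by this measure eGFP came first, with a mean of 0.775 over the 9 captures. Holding the number of detected genes fixed left the mean at 0.769, and using only cells with both transcripts above 0 left it at 0.740. The median eGFP level was 11.4 RPKM in the 87 cells with Nr5a1 under 1 RPKM, 461 RPKM in the 126 cells from 1 to 10 RPKM, 1765 RPKM in the 136 cells from 10 to 100 RPKM and 5039 RPKM in the 47 cells at 100 RPKM or more.

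With a cutoff of 1 RPKM for both transcripts, the disagreement between them was nearly all on 1 side. Where both passed it, the median per-cell ratio of eGFP to Nr5a1 was 77.7. A shared cutoff thus by itself gives more cells with eGFP alone than with Nr5a1 alone. Both reached 1 RPKM in 306 cells, eGFP alone in 64, Nr5a1 alone in 3 and neither in 23. Cells with eGFP alone numbered 22 of 59 for E10.5, 11 of 52 and 6 of 41 for the E11.5 captures, 6 of 30 and 3 of 37 for E12.5, 6 of 56 and 8 of 56 for E13.5, and 1 of 31 and 1 of 34 for E16.5. Of the cells with eGFP at 1 RPKM or more, 60% also held Nr5a1 at that level at E10.5. This compares with 96.7% and 96.9% in the E16.5 captures and 82.7% over all cells. The E10.5 share was the lowest, at a median depth of 7.91M reads per cell. At similar median depths of 8.10M and 7.83M reads per cell, the E13.5 captures had shares of 88.9% and 83.3%. Between E10.5 and the captures of E11.5, E12.5 and E16.5, stage and depth cannot be told apart. The part of depth in the E10.5 share was not tested. Counting any value above 0, Nr5a1 was found in 55 of the 59 E10.5 cells (93.2%), so most E10.5 cells with eGFP alone held some Nr5a1 reads.

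Where Nr5a1 was under 1 RPKM, eGFP was low but often present. In these 87 cells the middle range (first to last quartile) of eGFP was 0.852 to 91.4 RPKM and the highest value 684 RPKM, whereas the 309 cells with Nr5a1 had a median of 1002 RPKM. In the 32 cells at 0 for Nr5a1 the eGFP median was 0.882 RPKM and the highest value 85.1 RPKM. The 11 cells at 0 for eGFP had a median Nr5a1 of 0 and 1 value as high as 48.8 RPKM. The 23 cells with neither transcript had a median of 4979 detected genes (range 3125 to 7170), against 5665 in the others.

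**Figure D2:**
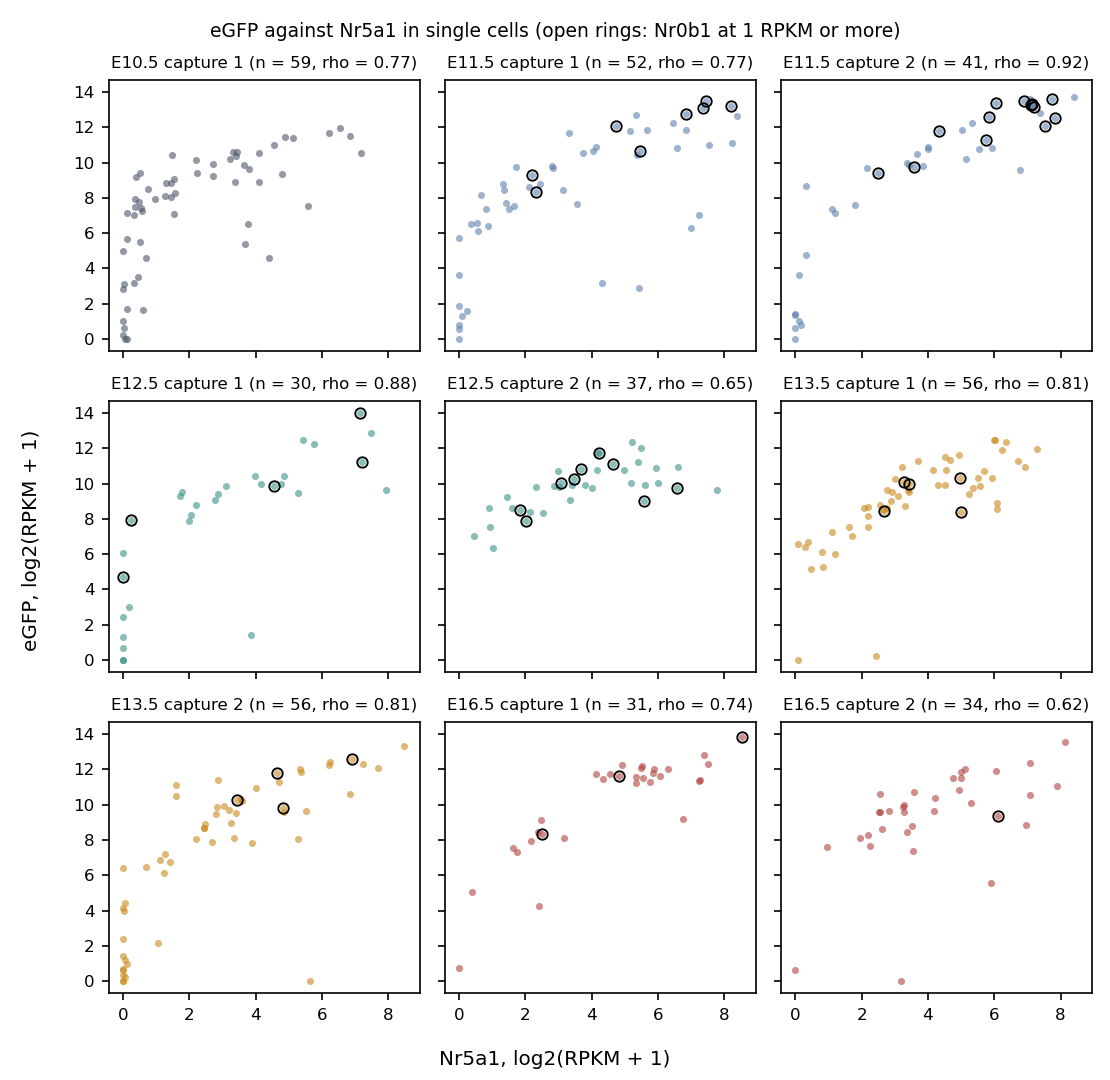
eGFP against Nr5a1 in each kept cell, both as log2(RPKM + 1), in 1 panel per capture with its cell number and Spearman correlation (rho); open rings mark cells with Nr0b1 at 1 RPKM or more. The points climb together in each panel, with rho between 0.622 and 0.925, and at E11.5 the ringed cells have a higher median of both transcripts than the others.

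The ratio of reporter to endogenous transcript had a smaller spread over the captures than either level. Mean eGFP divided by mean Nr5a1 was 52.4 for E10.5. It was 36.96 and 59.5 for the E11.5 captures, 48.7 and 47.9 for those of E12.5, 47.4 in both of E13.5, and 48.9 and 38.4 for those of E16.5. The lowest and the highest ratio were the 2 captures of E11.5, and E16.5 capture 2 was the other low value. On the log2 scale the standard deviation over the 9 captures was 0.205 for the ratio, 0.669 for Nr5a1, 0.690 for eGFP and 1.83 for Nr0b1. The mean log2 ratio was 5.55 in the early captures and 5.49 in the later ones, and the difference of -0.06 did not pass the exact permutation test (p = 0.774). It was -0.05 within the 10M-read captures (exact p = 1) and -0.09 within the 25M-read captures, where the p of 0.333 is the smallest that the exact permutation allows. Without E11.5 capture 1 the difference was -0.25 with an exact p of 0.0357, the smallest for 28 splits, and without E11.5 capture 2 it was 0.10 (exact p = 0.75), so its size and sign rest on which of these 2 captures is kept.

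Single cells varied far more than captures. Over the 306 cells with both transcripts the ratio had a median of 77.7, a middle range of 38.6 to 121 and extremes of 0.127 and 1081. Capture medians of the per-cell ratio lay between 67.7 in E16.5 capture 1 and 95.1 in E12.5 capture 2.

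Across captures the mean levels of Nr5a1 and eGFP, as log2(mean + 1), followed the same order. Pearson's r over the 9 captures was 0.955 (exact pairing permutation p = 2.76e-06, the smallest these pairings can give, 8.27e-06 adjusted over the 3 pairs of members), and Spearman's rho was 1 (exact permutation p = 5.51e-06, adjusted 1.65e-05). Without the captures farthest from the Nr5a1 median (E11.5 capture 2 and E10.5) r was 0.927, and within the 6 captures of 10M reads it was 0.888 (exact permutation adjusted p = 0.0792) with a rho of 1 (exact permutation adjusted p = 0.00833). Both levels came from the same cells and libraries.

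No relation of mean Nr0b1 with either of them passed the test. Its r with Nr5a1 was 0.364 and its rho 0.383 (exact permutation adjusted p = 0.341 and 0.312), and its r with eGFP was 0.445 with a rho of 0.383 (exact permutation adjusted p = 0.341 and 0.312). Without the 2 farthest captures both relations turned negative, with r of -0.446 for Nr5a1 and -0.463 for eGFP. Within the 10M-read captures r was -0.040 for Nr5a1 and 0.195 for eGFP.

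**Figure D3:**
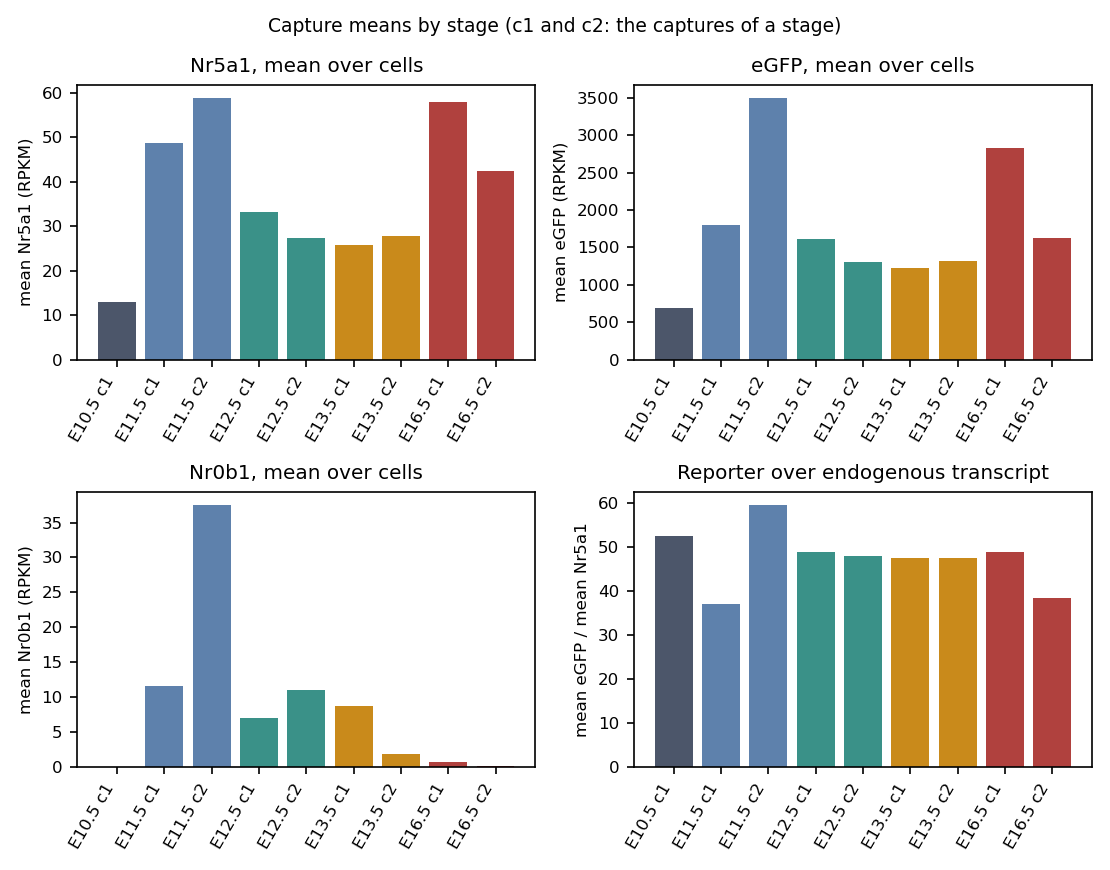
Bars give the mean RPKM of Nr5a1, eGFP and Nr0b1 over the cells of each capture on linear axes, coloured by stage, and the last panel gives mean eGFP divided by mean Nr5a1. Nr5a1 and eGFP are lowest at E10.5 and highest in E11.5 capture 2, the ratio stays between 36.96 and 59.5, and Nr0b1 falls from 11.6 and 37.5 RPKM at E11.5 to 0.613 and 0.120 RPKM at E16.5.

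Nr0b1 was restricted to a minority of cells. It was above 0 in 72 of 396 cells and reached 1 RPKM in 48 (12.1%), 10 RPKM in 30 and 100 RPKM in 14, of which 9 were E11.5 cells, with a highest value of 543 RPKM. At E10.5 it reached 1 RPKM in 0 of 59 cells, which allows a share of up to 5.08%, and no E10.5 cell held more than 2 reads of it. The share was 15.4% and 31.7% in the E11.5 captures, 16.7% and 24.3% in those of E12.5, 8.93% and 7.14% in those of E13.5, and 9.68% and 2.94% in those of E16.5. The highest share was that of E11.5 capture 2 (13 of 41 cells), and the captures of E11.5 and E12.5 overlapped. In E12.5 capture 2, 6 of the 9 cells with Nr0b1 belonged to a group led by germ cell genes, described below. Between the early captures (15.7% ± 15.9, SD, n = 3) and the later ones (11.6% ± 7.66, SD, n = 6) the difference of -4.08 points did not pass the exact permutation test (p = 0.619, adjusted 0.929). It was -10.1 points within the 10M-read captures and 8.04 points within the 25M-read captures, whose early stages are E11.5 and E10.5 respectively.

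The mean level of Nr0b1 was 0.00513 RPKM at E10.5, 11.6 and 37.5 RPKM at E11.5, 7.04 and 11.1 RPKM at E12.5, 8.70 and 1.81 RPKM at E13.5, and 0.613 and 0.120 RPKM at E16.5. These means rest on few cells: the top cell alone held 32.5% and 35.3% of the capture's Nr0b1 for E11.5, 72.8% and 31.3% for E12.5, 59.4% and 43.6% for E13.5, and 38.7% and 100% for E16.5. Cells that had Nr0b1 at 1 RPKM or more held a median of 62.97 and 65.6 RPKM in the E11.5 captures, 9.85 and 41.05 RPKM at E12.5, 8.90 and 25.9 RPKM at E13.5, and 7.17 and 4.09 RPKM at E16.5. The E16.5 captures had the lowest medians in such cells, whereas the share of such cells in E16.5 capture 1 (9.68%) was above those of both E13.5 captures.

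Most cells with Nr0b1 also had the other 2 transcripts, as did most cells of the table. All 48 cells with Nr0b1 had eGFP at 1 RPKM or more, against 93.4% of all cells, and 46 of them (95.8%) had Nr5a1, against 78.03% of all cells. Both exceptions were in E12.5 capture 1, 1 with 9.85 RPKM of Nr0b1 and 240 RPKM of eGFP, the other with 3.67 and 24.7 RPKM. In 26 of the 48 cells the Nr0b1 level was above that of Nr5a1 in the same cell. Conversely, 263 of the 309 cells with Nr5a1 had no Nr0b1 at 1 RPKM.

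At E11.5 the cells with Nr0b1 had more Nr5a1 in both captures. In capture 1 their median Nr5a1 was 78.3 RPKM against 5.24 RPKM in the other cells, and in capture 2 it was 119 against 9.59 RPKM. Median eGFP was 5585 against 316 RPKM in capture 1 and 6182 against 847 RPKM in capture 2. Grouped by Nr5a1 level and pooled over both captures, the E11.5 cells with Nr0b1 numbered 0 of 23 under 1 RPKM, 3 of 21 from 1 to 10 RPKM, 7 of 28 from 10 to 100 RPKM and 11 of 21 at 100 RPKM or more (52.4%, Wilson 95% interval 32.4% to 71.7%).

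At E12.5 and later, pooled over stages and captures, the same 4 levels held Nr0b1 in 2 of 38, 8 of 88, 13 of 94 and 4 of 24 cells, the last being 16.7% (Wilson 95% interval 6.68% to 35.9%). Median Nr5a1 in cells with and without Nr0b1 was 22.5 against 5.77 RPKM and 11.8 against 11.3 RPKM in the E12.5 captures, and 9.72 against 8.86 RPKM and 25.7 against 5.03 RPKM in the E13.5 captures. In E16.5 capture 1 the median was 27.2 RPKM in the 3 cells with Nr0b1 and 39.5 RPKM without, and in E16.5 capture 2 the 1 cell with Nr0b1 had 68.2 RPKM against 10.8 RPKM. The within-capture Spearman correlation of Nr5a1 with Nr0b1 was 0.587 in E11.5 capture 2 and between -0.049 and 0.209 in the other captures. That of eGFP with Nr0b1 was 0.377 and 0.617 in E11.5 captures 1 and 2 and between -0.099 and 0.244 elsewhere. Using only cells with both transcripts above 0, Nr5a1 with Nr0b1 had 0.478 and -0.213 in E11.5 captures 1 and 2 (13 and 14 cells). In E12.5 capture 2 it was 0.045 (11 cells). For eGFP with Nr0b1 the values of these 3 captures were 0.543, 0.143 and -0.482. The other captures had too few such cells. Nr0b1 was at 0 in most cells, and the difference between stages was not tested.

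**Figure D4:**
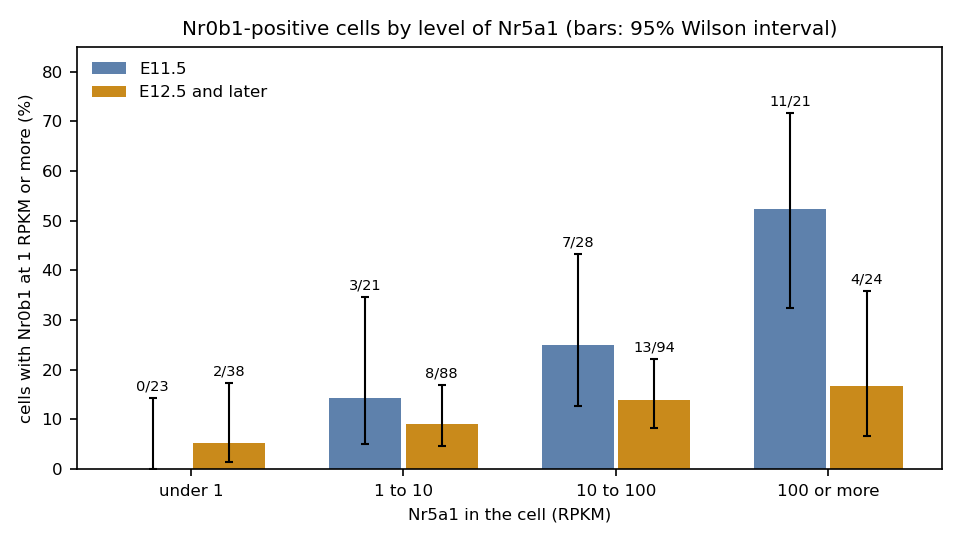
Percent of cells with Nr0b1 at 1 RPKM or more by the Nr5a1 level of the cell, for E11.5 and for E12.5 and later, with Wilson 95% intervals as error bars and the cell numbers above them. Cells were pooled over the 2 captures of E11.5 and over the 6 later captures. The intervals cover counting error only, not the spread between captures. The E11.5 bars climb from 0 of 23 to 11 of 21 cells, and the later bars end at 4 of 24.

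Stage differences in the mean levels were tested with limma on log2(mean RPKM + 1) of the captures, over 12313 genes with at least 1 RPKM in at least 2 captures and with Benjamini-Hochberg adjustment. Captures are the replicates, so the p-values measure the spread between captures, which may be technical in part, and the lone E10.5 capture was taken to have the same spread as the other stages. Of the early (E10.5 and E11.5, 3 captures) against the late stages (6 captures), a grouping made for this comparison, 0.577% of all genes were called at an adjusted p under 0.05. None of the 3 members was called, with 0 of 3 also at an unadjusted p under 0.05. The changes were 0.02 ± 0.42 (SE) for Nr5a1, -0.04 ± 0.41 for eGFP and -0.94 ± 1.04 for Nr0b1 on the log2 scale, with limma adjusted p of 0.993, 0.990 and 0.817.

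Each member had its largest upward step between neighbouring stages from E10.5 to E11.5. The log2 changes were 1.96 ± 0.46 (SE) for Nr5a1, 1.88 ± 0.41 for eGFP and 4.46 ± 0.95 for Nr0b1, with limma adjusted p of 0.130, 0.1002 and 0.0916. None passed the adjusted threshold, though all 3 had an unadjusted p under 0.05, and 0.39% of all genes were called. By p they stood at ranks 106, 82 and 76 of 12313 genes. Both E11.5 captures lay above the E10.5 capture for each member. The Nr0b1 change is set against a value close to 0 and so depends on the pseudocount: it was 7.64 with a pseudocount of 0.1 RPKM, with a limma adjusted p of 0.0242. This step joins the 25M-read and the 10M-read libraries, so stage and depth cannot be told apart in it. Within the 25M-read run, the changes from E10.5 to E13.5 were 0.99, 0.90 and 2.38 for Nr5a1, eGFP and Nr0b1, with limma adjusted p of 0.558, 0.547 and 0.427, where 1.06% of genes were called.

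The later steps between neighbouring stages brought no call among the members. From E11.5 to E12.5 the log2 changes were -0.81, -0.79 and -1.16 for Nr5a1, eGFP and Nr0b1, with limma adjusted p from 0.610 to 0.794 and 1 of 3 at an unadjusted p under 0.05. From E12.5 to E13.5 they were -0.16, -0.19 and -0.91, with limma adjusted p from 0.994 to 0.998 and 0 of 3 at an unadjusted p under 0.05. Neither step had any called gene (0% of 12313 by limma), against 961 and 563 genes at an unadjusted p under 0.05. From E13.5 to E16.5 they were 0.86, 0.76 and -1.96, with limma adjusted p from 0.520 to 0.575 and all 3 at an unadjusted p under 0.05, where 0.0893% of genes were called.

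Nr0b1 fell between E11.5 and E16.5, both in the 10M-read run. The captures of E16.5, at 0.613 and 0.120 RPKM, lay below those of E11.5, at 11.6 and 37.5 RPKM. The log2 change was -4.04 ± 0.78 (SE) with a limma adjusted p of 0.0256, in a comparison where 1.52% of genes were called. The direction held without each capture in turn (-4.84 to -3.23), but the call was lost without E11.5 capture 1 (limma adjusted p = 0.0590), E11.5 capture 2 (0.264), E16.5 capture 1 (0.0751) or E16.5 capture 2 (0.118). Nr5a1 and eGFP had changes of -0.11 ± 0.37 and -0.23 ± 0.33 in the same comparison, with limma adjusted p of 0.943 and 0.846. From E12.5 to E16.5 the changes were 0.70 for Nr5a1, 0.56 for eGFP and -2.87 for Nr0b1 (limma adjusted p 0.493, 0.542 and 0.143, 0.357% of genes called).

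To place the members in cell classes, the kept cells were clustered into 8 groups on marker genes that hold none of the 3. Names were given only where the markers carried them. Sertoli cells are the supporting cells of the testis cords, Leydig cells the androgen makers between them, and both are known to express Nr5a1.

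Among the clusters of more than 1 cell, the 2 Sertoli-like clusters and the Leydig-like cluster had the highest means of Nr5a1 and eGFP. The first Sertoli-like cluster (44 cells, 14 of 18 Sertoli markers in most of its cells, mainly E12.5 and E13.5) had a mean of 65.2 and a median of 39.3 RPKM of Nr5a1, and the second (33 cells, 15 of 18 markers, 30 of them from E16.5) 68.9 and 43.9 RPKM. All 77 of these cells held Nr5a1 and eGFP at 1 RPKM or more. The 7 Leydig-like cells, with Insl3, Cyp17a1, Cyp11a1, Hsd3b1 and Star among their leading genes, had a mean Nr5a1 of 220 RPKM (range 80.8 to 367 RPKM) and a mean eGFP of 7969 RPKM. Mean eGFP in the Sertoli-like clusters was 2903 and 3173 RPKM.

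The 286 cells of the largest cluster, which stayed unnamed because no marker list led it, had a mean Nr5a1 of 24.3 and a median of 5.17 RPKM, with a mean eGFP of 1230 RPKM. Within this cluster the Nr5a1 mean by capture was 14.4 RPKM at E10.5, 45.5 and 49.6 RPKM at E11.5, 9.19 and 30.9 RPKM at E12.5, 12.7 and 12.1 RPKM at E13.5, and 19.4 and 9.87 RPKM at E16.5. Both E11.5 captures were thus highest within the cluster, and at E16.5 it lay below the whole-capture means of 57.9 and 42.4 RPKM. The Sertoli-like cells of E16.5 had means of 67.3 and 68.95 RPKM in the 2 captures and made up 18 of 31 and 12 of 34 cells.

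Nr0b1 was found in cells of several clusters. It reached 1 RPKM in 11 of 44 cells (25.0%) of the first Sertoli-like cluster, 2 of 33 (6.06%) of the second, 1 of 7 Leydig-like cells and 28 of 286 cells (9.79%) of the unnamed cluster. When 10 clusters were made, the unnamed cluster split into groups of 90 and 196 cells. In the group of 90 the interstitial progenitor markers scored highest, and the smooth muscle genes Acta2 and Cnn1 were among the 10 leading genes. Nr0b1 reached 1 RPKM in 3 of these 90 cells. The group of 196 cells was led by Upk3b, a surface epithelium gene, with Nr0b1 in 25. The mean Nr5a1 of these 2 groups was 15.5 and 28.3 RPKM. Clusters share cells of unequal stage, so a difference between them also carries stage.

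Some sorted cells led by genes of other cell types carried the reporter as well. A cluster of 13 cells, 12 of them in E12.5 capture 2, was led by the germ cell genes Dppa5a, Dppa3, Dppa4, Dazl and Ddx4. Its eGFP mean was 904 RPKM with a lowest cell of 186 RPKM, its Nr5a1 mean 17.2 RPKM, and 6 of 13 cells held Nr0b1 (46.2%, Wilson 95% interval 23.2% to 70.9%). All 6 were among the 9 cells with Nr0b1 of E12.5 capture 2. The cluster's 12 cells there had a mean Nr0b1 of 28.1 RPKM, beside 11.1 RPKM over the whole capture. Of the 10 germ cell markers, 4 were each found in most cells of the cluster: Dppa3, Dppa5a, Dazl and Sall4. So were 6 interstitial progenitor and 4 Sertoli markers. The summed mean level of the 10 germ cell markers was 112 RPKM in E12.5 capture 2 and 1.70 to 18.6 RPKM in the other captures. Over all kept cells, 21 of 396 held at least 3 markers at 10 RPKM or more of more than 1 class, 9 of them germ cell with Sertoli markers, and their part in the Nr0b1 share of that capture was not tested beyond leaving the cluster out. Without it and the 2 clusters described next, the late-minus-early difference in the Nr0b1 share was -6.66 points, against -4.08 with them.

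A cluster of 9 cells from E10.5 and E11.5 was led by Pcp4, Wnt7a and Pax8, with the mesonephric markers Pax2, Pax8 and Lhx1 in most of them. It had a median Nr5a1 of 0.29 RPKM, a median eGFP of 31.2 RPKM and no cell with Nr0b1 (limit for 0 of 9 cells 33.3%). Of the 3 cells led by endothelial genes, 2 held Nr5a1 and eGFP at 1 RPKM or more, and 1 was at 0 for both. The mean over the 3 was 5.85 RPKM of Nr5a1 and 807 RPKM of eGFP, and none of them held Nr0b1. A single cell with both Sertoli and Leydig markers, left unnamed, had 74.7 RPKM of Nr5a1 and 3854 RPKM of eGFP.

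**Figure D5:**
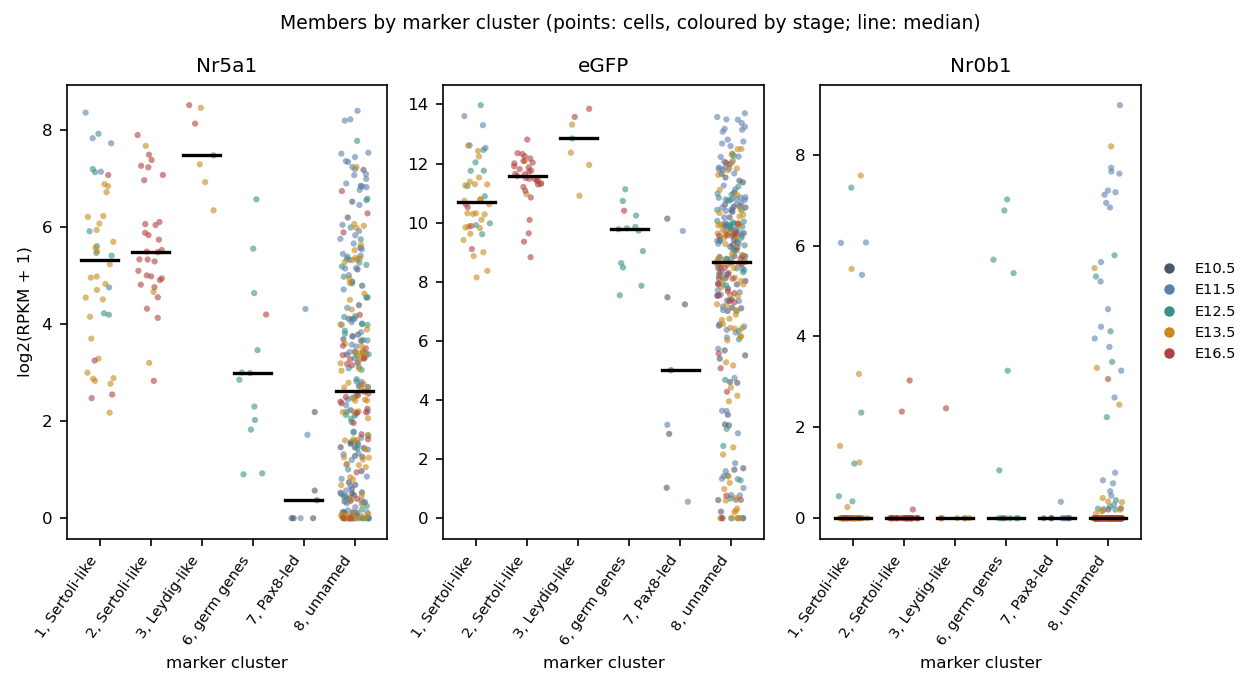
Nr5a1, eGFP and Nr0b1 in each kept cell, as log2(RPKM + 1), by marker cluster and coloured by stage, with the cluster's median as a line; the clusters of 1 and 3 cells are left out. The Leydig-like and Sertoli-like clusters have the highest medians of Nr5a1 and eGFP, and Nr0b1 is at 0 in most cells of each cluster shown.

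Nr5a1 and Nr0b1 are also known markers of the adrenal cortex, which arises next to the early gonad. The summed mean level of 5 adrenal cortex markers was 88.8 RPKM at E10.5, 62.2 and 18.9 RPKM at E11.5, 23.98 and 10.2 RPKM at E12.5, 41.7 and 27.8 RPKM at E13.5, and 16.4 and 11.2 RPKM at E16.5. Up to E12.5 this was nearly all Mc2r, the ACTH receptor, at 85.5 RPKM at E10.5 and 59.7 and 18.9 RPKM at E11.5. Of the defining steroid enzymes, Cyp11b2 reached 1 RPKM in 0 cells and Cyp21a1 in 1 cell. The sum was highest at E10.5, where the 3 members were lowest, and its part in the member levels was not tested.

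The genes whose cell-to-cell pattern was most like that of Nr5a1 were ranked by the mean within-capture Spearman correlation over the 9 captures, with a median of 0.052 over 8327 genes. After eGFP came the neighbouring gene Nr6a1 (0.534, range 0.181 to 0.720), the glycolytic enzyme gene Aldoa (0.525), the protease gene Tmprss13 (0.485) and Akr1cl (0.459). The lowest were Nr2f2, an orphan receptor of interstitial cells (-0.484), and the collagen genes Col1a1 (-0.437) and Col1a2 (-0.429).

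The eGFP list was nearly the same. Behind Nr5a1 came Nr6a1 (0.565), Aldoa (0.517), Etnk2 (0.504) and Tmprss13 (0.489), and the lowest were Rbms3 (-0.506), Nr2f2 (-0.478) and Col1a2 (-0.475). Psmb7, the proteasome gene on the other side of Nr5a1 (48568 bases away), had a correlation of 0.146 with Nr5a1 and 0.128 with eGFP. Nr6a1 was well expressed, at 1 RPKM or more in 322 cells, with means of 73.7 RPKM at E10.5, 84.8 and 138 RPKM at E11.5, 138 and 189 RPKM at E12.5, 93.96 and 130 RPKM at E13.5, and 141 and 119 RPKM at E16.5. Its late-minus-early change was 0.47 ± 0.27 (SE) on the log2 scale with a limma adjusted p of 0.585.

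For Nr0b1 all correlations were weak. The highest were Zbtb7c (0.251), Kctd14 (0.237), Ccrn4l (0.222), the calmodulin gene Calm3 (0.222) and Etnk2 (0.219), and the lowest Col1a2 (-0.196), Col3a1 (-0.186) and Flna (-0.185), with a median of 0.020 over 8328 genes. By this measure eGFP stood at rank 33 and Nr5a1 at rank 45. The neighbours of Nr0b1 on the X chromosome, Tab3 (557294 bases away) and Mageb4 (54306 bases away), reached 1 RPKM in 12.6% and 0.253% of cells.

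The list of regulators of Nr5a1 in the genital ridge had no call in late against early and 1 in E16.5 against E11.5. Of 10 tested genes of this list 0 rose and 0 fell in the late against the early captures by limma, 3 had an unadjusted p under 0.05, and the median log2 change was -0.55 beside -0.01 over all genes. The largest changes were those of Tcf21, at 1.52 ± 0.37 (SE) with a limma adjusted p of 0.0889, and Emx2, at -1.38 ± 0.65 with 0.458. From E11.5 to E16.5, 0 of the 10 rose and 1 fell by limma (1.52% of all genes called), 5 had an unadjusted p under 0.05, and the median was -0.68. The gene that fell was Wt1, a zinc finger factor of the gonadal ridge and Sertoli cells, from means of 163 and 170 RPKM in the E11.5 captures to 49.6 and 51.1 RPKM in those of E16.5 (-1.71 ± 0.34 SE, limma adjusted p = 0.0309). No gene of the list was called when either E11.5 or either E16.5 capture was left out, or with no filter on low values. Within captures Gata4, a zinc finger factor that acts with NR5A1, had a mean correlation of 0.370 with Nr5a1 and 0.400 with eGFP, and Cited2, a transcriptional co-activator, 0.280 and 0.290. Tcf21 (-0.193 and -0.241), which marks interstitial cells, ran the other way.

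Some known target genes of NR5A1 were higher in the late captures. Of 19 tested targets, 4 rose and 0 fell in the late captures, where the median log2 change was 1.74 and 0.577% of all genes were called. They were Amh, the Sertoli hormone that removes the Müllerian ducts (3.92 ± 0.64 SE, limma adjusted p = 0.0137), the steroid enzyme gene Hsd3b1 (3.65 ± 0.49, 0.00620), Vnn1, a pantetheinase gene of Sertoli cells (3.39 ± 0.40, 0.00567), and Dhh, the hedgehog ligand of Sertoli cells (3.07 ± 0.63, 0.0481). Leaving out each capture in turn kept the calls of Hsd3b1 and Vnn1. That of Amh was lost without E10.5 or without E13.5 capture 1, and that of Dhh without any 1 of 8 captures, all but E12.5 capture 1. Several of these genes were also used as cell class markers, and the summed mean level of the 18 Sertoli markers was 111 RPKM at E10.5 and 3462 and 4102 RPKM at E16.5. Its part in the change of the targets was not tested.

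From E11.5 to E16.5, 10 of the 19 targets rose and 2 fell, with a median log2 change of 2.64, where 1.52% of all genes were called. The log2 means of Nr5a1 and eGFP changed by -0.11 and -0.23, but both changes were positive with the mean of log values over cells. The share of cells with Nr5a1 at 1 RPKM or more was 73.1% and 78.05% at E11.5 and 93.5% and 94.1% at E16.5. Among the targets that fell was Mc2r (-5.09 ± 0.72 SE, limma adjusted p = 0.00496). With 1 capture left out the calls in this comparison numbered 6 without either E11.5 capture and 7 without E16.5 capture 1, against 12 with all captures. Within captures, all 8 targets expressed widely enough to rank correlated positively with Nr5a1 (median 0.382), eGFP (0.388) and Nr0b1 (0.149). Over all ranked genes the medians were 0.052, 0.040 and 0.020. Sox9, 1 of the 8, is also a Sertoli marker.

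The coregulators of NR5A1 and NR0B1 had no called change among 16 tested genes by limma in late against early, with 2 at an unadjusted p under 0.05 and a median of 0.05, and none in E16.5 against E11.5, with 1 at an unadjusted p under 0.05 and a median of -0.11. The largest late against early changes were those of the corepressor Nrip1 (-1.22 ± 0.38 SE, limma adjusted p = 0.202) and the coactivator Ncoa1 (1.08 ± 0.41, 0.332). Among 16 tested genes of other nuclear receptors 0 rose and 1 fell in late against early, Nr2f1, from 59.9 RPKM at E10.5 and 24.2 and 11.1 RPKM at E11.5 to 2.28 and 0.00327 RPKM at E16.5 (-2.92 ± 0.61 SE, limma adjusted p = 0.0481), a call lost without any 1 of 5 captures (E10.5, E11.5 capture 1, E13.5 capture 1, E13.5 capture 2 or E16.5 capture 1). From E11.5 to E16.5, 1 rose and 1 fell: Nr4a1, an immediate early orphan receptor gene, changed by 2.46 ± 0.45 (SE, limma adjusted p = 0.0197) and Nr2f1 by -3.27 ± 0.69 (0.0410). Neither was called without E11.5 capture 1, E11.5 capture 2 or E16.5 capture 2 or with no filter on low values, and 1 of the 16 genes was called without E12.5 capture 1, either E13.5 capture or E16.5 capture 1. Nr4a1 was also the 1 receptor gene called from E10.5 to E13.5, at 4.35 ± 0.55 (SE, limma adjusted p = 0.00242).

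Of the 8 genes of the Wnt pathway that feeds Nr0b1, 0 were called in either direction by limma in late against early and 0 had an unadjusted p under 0.05. Their median was -0.61, with Fzd1, a Wnt receptor, at -1.36 ± 0.65 (SE, limma adjusted p = 0.466) and the ligand Wnt4 at -1.02 ± 0.55 (0.553). From E11.5 to E16.5, where Nr0b1 was called, 0 of the 8 passed the threshold by limma, 3 had an unadjusted p under 0.05, and the log2 changes of all 8 were negative with a median of -1.04, beside -0.08 over all genes. The lowest was that of Rspo1, a secreted enhancer of Wnt signalling, at -2.76 ± 0.63 (SE, limma adjusted p = 0.0539). In this comparison 1 gene of the list was called with a pseudocount of 0.1 RPKM, with mean log values or with at least 4500 detected genes per cell.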

How the data were processed

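The authors deposited 1 table of RPKM values for single cells, and per the submitters' processing notes the builds were GRCm38.p3 and mm10. For the aligner, counter and annotation: not given in the sources used here. Low values of the members, under 20 reads, were whole multiples of 1 read within 0.1. This held for 64 of 64 values of Nr5a1, 33 of 33 of eGFP and 28 of 28 of Nr0b1. An eGFP length of 717 bases was inferred from the steps of low values, so its 33 of 33 is not a check. The RPKM worth of a single eGFP read rests on that length. Depth per cell was taken from the steps of low values. Libraries were made with the SMARTer and Nextera XT kits after C1 capture, per the labels' protocols. All captures used small chips except E13.5 capture 1, which used a medium one.

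Cells under 3000 detected genes were removed and the 35 labelled cells without values were not used here. The near-identical pair (r = 0.998 of log2 values) was averaged. No caller for doublets was run. Capture means were tested with limma 3.58.1 in R 4.3.3 (trend and robust empirical Bayes, pseudocount of 1 RPKM). Shares, ratios and correlations across captures were tested by exact permutation in Python 3.11.15 with numpy 2.4.6, pandas 2.3.3 and scipy 1.17.1. Ward clustering used 91 marker genes. The limma, permutation and ranking steps were tested on simulated data.

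Named genes were all 3 members, the 5 highest and 3 lowest genes by likeness to each (at 1 RPKM or more in at least 10% of kept cells and in 5 cells of 7 captures, predicted gene models left out), up to 4 called or 2 uncalled genes of each list, and genomic neighbours; marker genes, Mc2r, Gata4, Cited2, Wt1, Nr4a1 and Rspo1 were named after their values were seen. Members and lists were chosen with earlier results of these data known. Alternatives covered the pseudocount, the mean of log values, filters on genes and cells, scaling, depth as a term, detection level, cluster number and leaving out each capture. Thinning, the median per-cell ratio and leaving out clusters 5, 6 and 7 (endothelial, germ cell and Pax8-led) were chosen after seeing the data.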

Additional observations from a re-analysis of the deposited data

Results flagged for a closer look

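Among the 6 captures of E12.5 and later, the mean eGFP level of E16.5 capture 1 stood apart at 2832 RPKM, with the others between 1223 and 1630 RPKM, so that the gap took up most of the range. The log2 ratio of eGFP to Nr5a1 stood apart in E16.5 capture 2 at 5.23, with the others between 5.51 and 5.59. Chance marks about 1 in 20 groups in this way, and 10 quantities were examined.

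Mean Nr0b1 moved in opposite directions in the 2 sequencing runs. Within the 10M-read captures the late minus early difference was -19.9 RPKM, with all 4 later captures below both E11.5 captures. Within the 25M-read captures it was 5.25 RPKM, with both E13.5 captures above the E10.5 capture. The difference between the runs was not tested, and since their early stages are not the same, depth and stage cannot be told apart.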

How the results depend on the processing

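No paired analysis was possible because capture numbers only name the captures of a stage. Most values stayed as in the main setting (781 under planned and 49 under added alternatives). For tested results this meant the same direction and side of the threshold, also where neither was called. For untested values it meant lying near the main value, by the spread over captures, the interval or the size of a count. Of the rest, 29 planned and 2 added values reversed direction, and 35 and 1 lost a call. A call was gained by 5 planned values, and 21 planned and 1 added untested values moved. With a pseudocount of 10 RPKM the late against early change of Nr5a1 (0.02) was -0.027, with at least 4500 detected genes per cell -0.070, and without clusters 5, 6 and 7 -0.0086. Using the mean over cells of log2 values, that of eGFP (-0.04) was 0.60, and from E11.5 to E16.5 Nr5a1 changed by 0.64 and eGFP by 0.92; with at least 4500 genes the last Nr5a1 change was 0.012. From E10.5 to E11.5 eGFP passed the threshold with at least 4500 genes (1.96, limma adjusted p = 0.0273) and Nr0b1 with a pseudocount of 0.1 RPKM (7.64). The E16.5 against E11.5 change of Nr0b1 missed it with a pseudocount of 10 RPKM (-1.63, limma adjusted p = 0.0653) and with no filter (-4.04, 0.181).

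Leaving out 1 capture at a time gave late against early changes of -0.63 to 0.42 for Nr5a1, -0.67 to 0.51 for eGFP and -2.43 to 0.20 for Nr0b1. From E11.5 to E16.5 it gave -0.33 to 0.11, -0.71 to 0.25 and -4.84 to -3.23. Share differences then ran from -0.771 to 2.09 points for eGFP and -11.9 to 3.92 points for Nr0b1, and the log2 ratio difference from -0.25 to 0.10. The eGFP share difference was -0.690 without the 3 clusters, -0.208 for any value above 0 and -2.15 within the 25M-read captures, where that of Nr0b1 was 8.04. The ratio difference was 0.016 with at least 4500 genes and 0.13 with mean log values. At a detection level of 10 RPKM, 76.7% of cells with Nr0b1 and 51.4% of cells with eGFP also held Nr5a1, against 95.8% and 82.7% at 1 RPKM.

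Called targets of NR5A1 in late against early numbered 4, but 2 with a pseudocount of 10 RPKM or mean log values and 0 with no filter, and 2 to 5 with 1 capture left out. For E16.5 against E11.5 they numbered 12, but 3 with no filter and 6 to 12 with 1 capture left out. In late against early, called nuclear receptors fell from 1 to 0 with either other pseudocount, no filter, depth as a term or without the 3 clusters, and were 0 to 1 with 1 capture left out. Called coregulators there were 1 with mean log values, and called regulators 0 to 1 with 1 capture left out. Over all genes, 71 were called in late against early, but 21 with a pseudocount of 10 RPKM, 4 with no filter, 19 without E10.5, 15 without E13.5 capture 1, 40 without E11.5 capture 1, 37 without E13.5 capture 2, 43 without E16.5 capture 2 and 113 without E12.5 capture 1. From E10.5 to E11.5, 48 were called, but 98 and 10 with pseudocounts of 0.1 and 10 RPKM, 92 with mean log values, 205 with no filter, 27 without E11.5 capture 1 and 6 without E11.5 capture 2. The causes were not tested. Depth limits the low values: at E11.5 a read of Nr0b1 was worth up to 0.251 RPKM in the median cell of a capture and up to 0.513 RPKM in a single cell.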

Other observations

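Within captures, the cell class markers took sides with respect to the reporter. All 7 ranked Sertoli markers correlated positively with Nr5a1 (median 0.331), eGFP (0.362) and Nr0b1 (0.114), beside medians of 0.052, 0.040 and 0.020 over all ranked genes. Of 11 ranked interstitial progenitor markers, 10 correlated negatively with Nr5a1 (median -0.193) and with eGFP (-0.236), and 11 with Nr0b1 (-0.099). The 3 ranked smooth muscle markers were negative with Nr5a1 (-0.128) and eGFP (-0.196). Of 6 ranked surface and early progenitor markers 5 were negative with each, but the medians lay near 0 (-0.038 and -0.041). The exception, Krt8, had the largest correlations of that list (0.257 and 0.293).

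Markers of other cell types were low in most captures. The summed mean level of 9 endothelial markers ranged from 7.52 to 68.4 RPKM, of 4 macrophage markers from 2.04 to 7.17 RPKM, of 2 erythroid markers from 0.337 to 23.8 RPKM and of 5 neural crest and glia markers from 1.59 to 14.6 RPKM. That of 4 mesonephric markers was 22.3 RPKM at E10.5, 10.52 and 2.95 RPKM at E11.5 and at most 2.53 RPKM later. Over the same captures the sum of 18 Sertoli markers went from 111 RPKM at E10.5 to 3462 and 4102 RPKM at E16.5, and that of 8 Leydig markers from 17.2 to 969 and 790 RPKM. Their part in the member levels was not tested.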
